A study of Drosophila melanogaster with 8 samples.

Results

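The respiratory chain of the mitochondrial inner membrane passes electrons from NADH and succinate to oxygen through 4 multi-subunit enzymes. Complex I (NADH dehydrogenase) and complex II (succinate dehydrogenase) both hand electrons to ubiquinone, complex III (cytochrome bc1 complex) passes them on to cytochrome c, and complex IV (cytochrome c oxidase) reduces oxygen; complexes I, III and IV also pump protons. Most subunits are encoded in the nucleus and must be made in proportion to partners from other chromosomes, so X-linked and autosomal genes contribute to the same enzyme. The genes described here are the nuclear-named subunits of complexes I to IV, chosen by current symbol (a name beginning with ND-, UQCR- or COX, together with SdhA, SdhB, SdhC and SdhD) without ATP synthase. The rule names 72 genes, of which 55 were measured among the 11983 genes tested: 32 of 40 in complex I, 3 of 4 in complex II, 6 of 9 in complex III and 14 of 19 in complex IV. Of the other 17 genes, 3 lie in the mitochondrial genome (COX1, COX2 and COX3), COX6B and ND-AGGG were covered only by a probe set shared with another gene, and 12 had no probe set under these symbols. Of the 55 genes measured, 9 are X-linked (8 of complex I and UQCR-14 of complex III) and 46 are autosomal, while ND-24 and COX6B, which are X-linked too, were not analysed here.

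The cells were Kc cells, a female Drosophila melanogaster line with features of blood cells, treated with double-stranded RNA against Sxl (Sxl RNAi, 3 arrays), against both Sxl and Msl2 (Sxl and Msl2 RNAi, 2 arrays) or against GFP as control (GFP RNAi, 3 arrays). No other treatment was given in the labels, and all 8 arrays come from this 1 cell line. SXL blocks translation of MSL2 in females, so its loss lets the MSL complex form, the assembly that raises transcription of the single X of males. The comparison of Sxl RNAi with GFP RNAi asks whether X-linked transcripts rise in female cells, and the double knockdown asks whether the rise needs MSL2. The labels pair each knockdown array with the GFP array that served as its background, which gives 3 control sets. Sets 1 and 3 hold an array of all 3 treatments, and set 2 holds a Sxl RNAi and a GFP RNAi array but no double knockdown. The labels do not say whether arrays of a group came from separate cultures, so p-values cover no more than the variation among these arrays, and that variation may be technical.

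Array medians lay between 4.40 and 4.46 on the log2 scale. The deposited values had been made with RMA, which quantile-normalizes arrays, so these medians do not show how bright the raw arrays were. The msl-2 transcript, whose knockdown checks the label, read 5.33, 6.19 and 5.61 after Sxl RNAi in sets 1, 2 and 3, 4.16 and 4.13 after Sxl and Msl2 RNAi in sets 1 and 3, and 4.32, 4.47 and 4.51 after GFP RNAi. It was 1.43 higher after Sxl RNAi than in the double knockdown (limma adjusted p = 0.00399). The double knockdown did not differ from GFP RNAi past the threshold (-0.16, limma adjusted p = 0.684), and both groups lay under the expression limit given below. The knockdown of msl-2 thus shows only against its raised level after Sxl RNAi. The Sxl transcript read 6.09, 6.64 and 6.93 after Sxl RNAi, 6.65 and 7.37 after Sxl and Msl2 RNAi, and 7.20, 7.01 and 6.99 after GFP RNAi. It was lower in sets 1 and 2 after Sxl RNAi but close to its GFP array in set 3, and in the double knockdown it was lower in set 1 and higher in set 3, the library labelled Sxl and Msl2 RNAi replicate 2. Neither difference from GFP RNAi passed the threshold (-0.51, limma adjusted p = 0.0935, and -0.05, limma adjusted p = 0.941). Of 12 plasmatocyte (blood cell) markers 10 lay above the expression limit of 5.24, the median over all genes, with NimC1 and Sr-CI under it. Markers of fat body (0 of 6), muscle (1 of 6), neurons (2 of 7) and of testis and germ line (2 of 12) were mostly under it. The log2 of the summed linear level of the plasmatocyte markers, set mostly by a few bright probe sets, spanned 12.87 to 13.43 after Sxl RNAi, 13.11 to 13.13 after Sxl and Msl2 RNAi and 13.19 to 13.40 after GFP RNAi.

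Both arrays of control set 2 stood apart in these markers. The collagen gene Col4a1 read 6.75 after Sxl RNAi and 5.70 after GFP RNAi in set 2, against 9.67 to 10.10 on the other 6 arrays, and He, a blood cell marker, read 10.39 and 10.56 there, against 6.08 to 8.04. Of the 12 plasmatocyte markers 6 differed between set 2 and the mean of sets 1 and 3 by more than 1 in the same direction in both treatments (He, NimC1 and Pxn higher, Col4a1, vkg and eater lower), where 2.19% of all genes tested did. The germ line gene bam passed the expression limit on average through set 2, at 7.43 after Sxl RNAi and 7.79 after GFP RNAi, against 4.51 to 4.85 elsewhere. Markers also moved with the knockdowns. After Sxl RNAi, Pxn (1.39), the neuronal gene elav (0.66) and the germ line gene twe (0.30) were called higher and He (-1.02) and Ppn (-1.33) lower. Of these elav is X-linked, and 41.0% of expressed X genes were called higher after Sxl RNAi. In the double knockdown Pxn (1.37) and Ppn (-1.63) were called. The part of such marker shifts in the results below was not tested. Values without control set 2 are given below for respiratory chain genes called against GFP RNAi, but not for the other pathway genes called. In bulk RNA, fewer cells of a type and less RNA per cell cannot be told apart.

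Of the 55 genes 42 had a mean above the expression limit. The 41 genes without a paralogue name passed it with the exceptions of ND-B8 (3.85) and UQCR-11 (4.99). The 14 genes whose symbols mark them as a second copy of a subunit (names ending in L, L1 or L2) had means of 3.52 to 7.32, and 3 of them passed: COX4L (7.32), COX7AL (5.92) and ND-20L (5.40). In flies such copies are often expressed mainly in the testis. The 2 probe sets with the brightest mean in each complex were those of UQCR-14 (12.55) and UQCR-6.4 (12.28) in complex III, COX4 (12.61) and COX7C (12.39) in complex IV, ND-MLRQ (12.26) and ND-39 (12.13) in complex I, and SdhB (11.63) and SdhC (10.67) in complex II. Brightness depends on the probes, so this choice does not order the genes by transcript level.

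After Sxl RNAi, most X-linked respiratory chain genes rose and no autosomal one was called higher. Of the 9 X-linked genes 7 were called higher than in GFP RNAi cells: ND-B18, ND-B14.5A, ND-75, ND-ASHI, ND-18, ND-MNLL and UQCR-14, by 0.26 to 0.52 on the log2 scale, or 1.20-fold to 1.43-fold. Of the 46 autosomal genes, 33 of them above the expression limit, 0 were called higher, where 4.99% of expressed autosomal genes were. COX7AL alone was called lower, where 9.26% of expressed autosomal genes were. With so few genes, neither autosomal count is set apart from these shares. A call here is a limma adjusted p under 0.05 over all 11983 genes in a fit with the control set as a block. Over all genes tested 10.3% were called (5.98% higher and 4.35% lower, or 716 and 521 genes, against 912 and 330 with arrays centred on autosomal genes), and of 1047 expressed X genes 41.0% were called higher. The median log2 fold change was 0.29 over the 9 X-linked genes and 0.02 over the 46 autosomal genes, beside 0.23 over expressed X genes, -0.05 over expressed autosomal genes and -0.01 over all genes tested.

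Complex I held 8 of the 9 X-linked genes, and 6 of these were called. Its NADH-oxidising arm carries iron-sulphur clusters toward ubiquinone, and its membrane arm pumps protons; the places of subunits given here are known from the mammalian enzyme. ND-75, a core subunit of the NADH-oxidising arm that holds iron-sulphur clusters, read 11.18, 10.85 and 11.01 after Sxl RNAi in sets 1, 2 and 3, 10.73 and 10.57 after Sxl and Msl2 RNAi in sets 1 and 3, and 10.77, 10.46 and 10.55 after GFP RNAi. Every Sxl RNAi array lay above every other array, and the double knockdown arrays lay beside their GFP arrays. The rise over GFP RNAi was 0.42 ± 0.07 (SE, 1.34-fold, limma adjusted p = 0.00439). ND-18, an accessory subunit that stabilises the same arm, read 10.79, 10.82 and 10.80 after Sxl RNAi, 10.72 and 10.70 after Sxl and Msl2 RNAi, and 10.58, 10.55 and 10.46 after GFP RNAi. The groups did not overlap, with the double knockdown between the others, and Sxl RNAi raised ND-18 by 0.27 ± 0.07 (SE, limma adjusted p = 0.0344).

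At the junction with ubiquinone lie ND-20, the core subunit with the last iron-sulphur cluster of the chain, and the accessory subunit ND-B14.5A. ND-B14.5A read 10.74, 10.07 and 10.94 after Sxl RNAi in sets 1, 2 and 3, 10.24 and 10.57 after Sxl and Msl2 RNAi, and 10.10, 9.77 and 10.32 after GFP RNAi. The groups overlapped because both arrays of set 2 were low, yet in all 3 sets the Sxl RNAi array was the higher, and the fitted rise was 0.51 ± 0.08 (SE, 1.43-fold, limma adjusted p = 0.00515). ND-20 read 11.56, 11.28 and 11.32 after Sxl RNAi, 11.48 and 11.36 after Sxl and Msl2 RNAi, and 11.35, 11.21 and 11.05 after GFP RNAi. Its Sxl RNAi arrays were above their GFP partners in all 3 sets, but the difference of 0.18 ± 0.08 (SE, interval 0.02 to 0.35) did not pass (limma adjusted p = 0.181). All intervals given here are 95% intervals of the single fitted difference, without adjustment over genes.

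The membrane arm contributed ND-ASHI, ND-B18 and ND-MNLL, accessory subunits of its far part, and ND-B16.6, an accessory subunit nearer the junction of the arms, known in mammals also as GRIM-19. ND-B18 read 11.95, 11.77 and 11.89 after Sxl RNAi in sets 1, 2 and 3, 11.62 and 11.71 after Sxl and Msl2 RNAi, and 11.35, 11.43 and 11.27 after GFP RNAi. The 3 groups did not overlap, and the rise over GFP RNAi was 0.52 ± 0.08 (SE, 1.43-fold, limma adjusted p = 0.00436). ND-ASHI read 11.17, 10.73 and 11.32 after Sxl RNAi, 10.89 and 11.08 after Sxl and Msl2 RNAi, and 10.79, 10.35 and 10.83 after GFP RNAi. As for ND-B14.5A, set 2 was low under both treatments, and within sets every Sxl RNAi array was above its GFP array, with a rise of 0.42 ± 0.07 (SE, 1.33-fold, limma adjusted p = 0.00558). ND-MNLL read 11.88, 11.73 and 11.98 after Sxl RNAi, 11.74 and 11.94 after Sxl and Msl2 RNAi, and 11.57, 11.54 and 11.71 after GFP RNAi. Both knockdowns lay above all GFP arrays, and the fitted rise with Sxl RNAi was 0.26 ± 0.07 (SE, limma adjusted p = 0.0428). ND-B16.6 read 11.07, 11.16 and 10.89 after Sxl RNAi, 11.07 and 10.97 after Sxl and Msl2 RNAi, and 10.86, 11.09 and 11.08 after GFP RNAi. Its Sxl RNAi array was the higher in sets 1 and 2 and the lower in set 3, and the fitted difference was 0.03 ± 0.09 (SE, interval -0.16 to 0.22, limma adjusted p = 0.902).

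Complex III has 1 X-linked gene among those measured, UQCR-14, a small subunit without a redox centre. It read 12.65, 12.82 and 12.72 after Sxl RNAi in sets 1, 2 and 3, 12.42 and 12.45 after Sxl and Msl2 RNAi, and 12.33, 12.55 and 12.42 after GFP RNAi. All Sxl RNAi arrays were above all other arrays, the double knockdown lay within the range of GFP RNAi, and the fitted rise with Sxl RNAi was 0.29 ± 0.07 (SE, 1.22-fold, limma adjusted p = 0.0227). Across the X-linked genes, 5 of 9 had every Sxl RNAi array above every GFP array, where 5.72% of all genes tested and 27.2% of expressed X genes did. Higher in every pair were 8 of 9, where 19.1% of all genes tested were. The share of expressed X genes higher in every pair was not computed, so that count does not set these genes apart from other X genes.

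**Figure D1:**
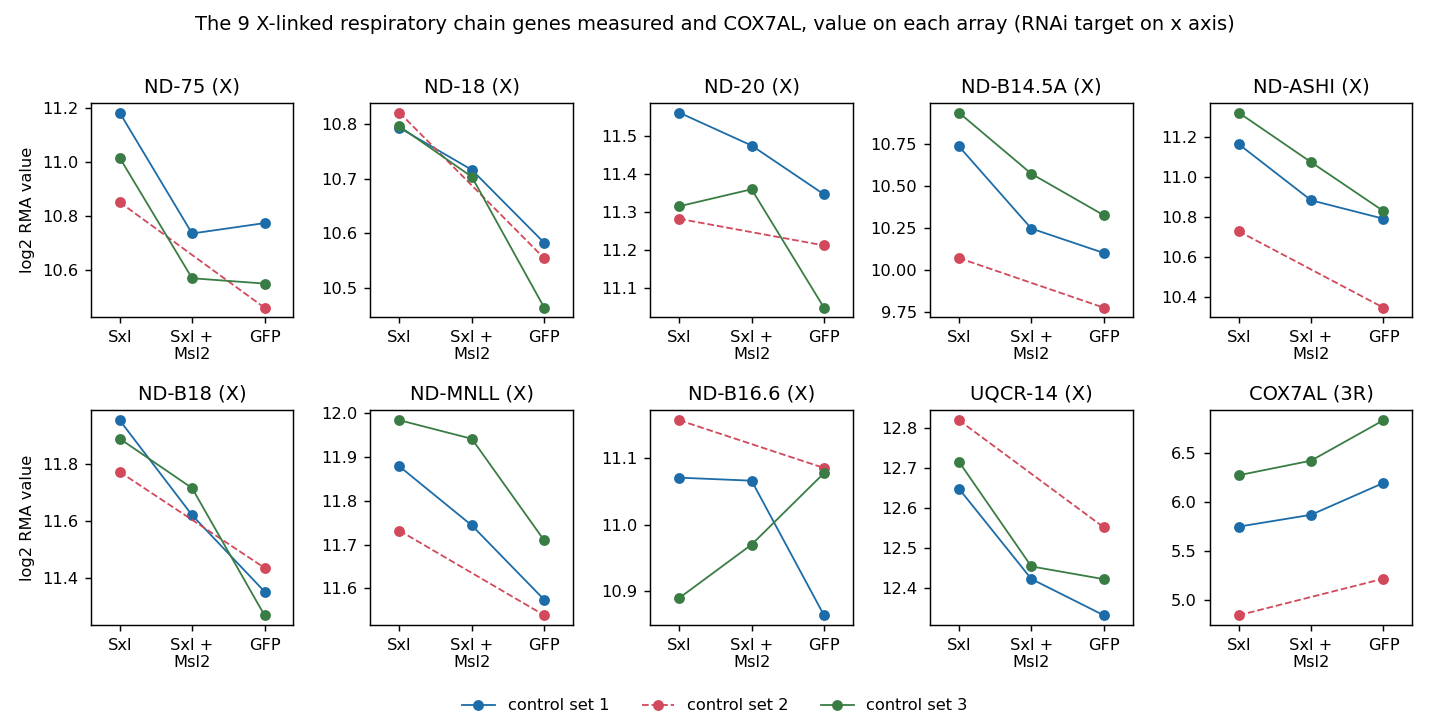
Log2 RMA value of the 9 X-linked genes and of COX7AL on each array, with Sxl RNAi at the left, Sxl and Msl2 RNAi in the middle and GFP RNAi at the right of each panel; each point is 1 array, lines join arrays of a control set, and the dashed line of set 2 has no array in the middle. Sxl RNAi points lie above the GFP RNAi point of their set in every panel except ND-B16.6 in set 3 and COX7AL in all 3 sets, and the y axes differ between panels and do not start at 0.

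The calls differed in how far they rested on single arrays. ND-B18, ND-B14.5A, ND-75, ND-ASHI and COX7AL were called whichever array was left out. UQCR-14 was lost without any 1 of the Sxl RNAi or GFP RNAi arrays (0.28 to 0.30, limma adjusted p = 0.0572 to 0.116), and ND-18 and ND-MNLL were lost without any 1 of the 8 arrays (0.24 to 0.30 and 0.23 to 0.29). Without the control set as a block no respiratory chain gene was called, with the X-linked genes at the same fold changes. In that fit 30 of all genes tested were called. Without control set 2, ND-B14.5A (0.62), ND-B18 (0.61), ND-75 (0.44), ND-ASHI (0.43) and COX7AL (-0.50) were called after Sxl RNAi against GFP RNAi, while ND-18, ND-MNLL and UQCR-14 were not (0.27 to 0.30, limma adjusted p = 0.0572 to 0.0933). In that fit COX7AL was also called in the double knockdown against GFP RNAi (-0.37, limma adjusted p = 0.0435).

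The autosomal subunits had small differences between Sxl RNAi and GFP RNAi. In complex I the 24 autosomal genes, 5 of them with a paralogue name, had a median of 0.02 against 0.34 for the 8 X-linked genes. This difference of 0.32 is between transcripts, and amounts of the enzyme were not measured. The autosomal gene with the largest difference upward was ND-19, an accessory subunit of complex I, at 10.28, 10.11 and 10.39 after Sxl RNAi, 10.27 and 10.26 after Sxl and Msl2 RNAi, and 10.04, 10.05 and 10.02 after GFP RNAi. All knockdown arrays were above all GFP arrays, but neither difference passed (0.22 ± 0.08 after Sxl RNAi, limma adjusted p = 0.114, and 0.19 ± 0.09 in the double knockdown, limma adjusted p = 0.344, SE). ND-MLRQ, an accessory subunit that in mammals has been placed in complex IV, differed by 0.05 after Sxl RNAi, and ND-39, an accessory subunit near the quinone site, by -0.01. In complex II, the iron-sulphur subunit SdhB differed by -0.03 and the membrane anchors SdhC and SdhD by 0.04 and -0.08, with intervals of the 3 genes between -0.25 and 0.21. In complex III, the small subunit UQCR-6.4 differed by 0.04, and the intervals of the 3 autosomal genes without a paralogue name lay between -0.21 and 0.20. In complex IV, COX4, a subunit with a regulatory role, differed by 0.00 and the small subunit COX7C by 0.08, and the intervals of the 7 genes without a paralogue name lay between -0.22 and 0.23. The median over all members of a complex was 0.06 for complex I, -0.03 for complex II, 0.04 for complex III and -0.00 for complex IV.

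**Figure D2:**
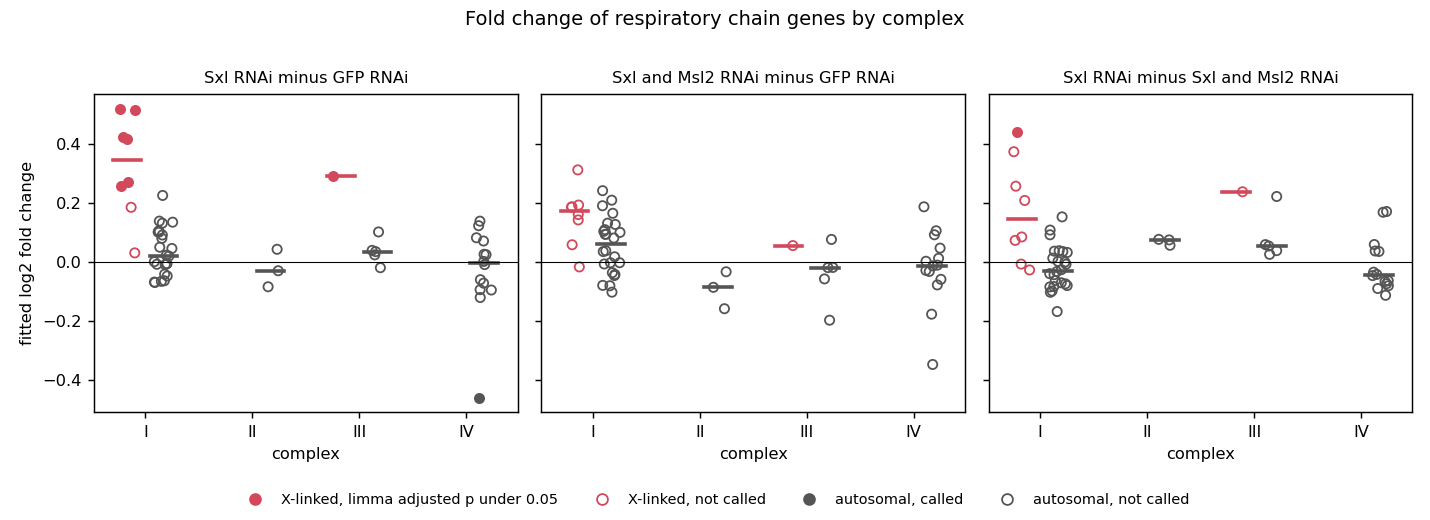
Fitted log2 fold change of each respiratory chain gene by complex, for Sxl RNAi minus GFP RNAi (left), Sxl and Msl2 RNAi minus GFP RNAi (middle) and Sxl RNAi minus Sxl and Msl2 RNAi (right); each point is 1 gene, red is X-linked, grey is autosomal, filled points passed the threshold and bars are medians. The 7 filled red points at the left are the X-linked genes called, and the filled grey point is COX7AL.

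The 1 gene called lower, COX7AL, is a paralogue of the small complex IV subunit COX7A on 3R, separated from it by 2 genes. It read 5.74, 4.84 and 6.27 after Sxl RNAi in sets 1, 2 and 3, 5.87 and 6.42 after Sxl and Msl2 RNAi, and 6.19, 5.21 and 6.83 after GFP RNAi. The groups overlapped widely, because sets differed more than treatments, but within each set the Sxl RNAi array was the lowest and the GFP array the highest; over all genes tested 22.7% were lower after Sxl RNAi in every pair. COX7AL fell by 0.46 ± 0.07 after Sxl RNAi (SE, 0.727-fold, limma adjusted p = 0.00381), and after Sxl and Msl2 RNAi the difference was -0.35 ± 0.08 (SE, limma adjusted p = 0.0514). COX7A itself differed by 0.07 after Sxl RNAi. The other 13 paralogue-named genes were not called in any comparison, with differences of -0.12 to 0.14 after Sxl RNAi. Their means were 4.31 for ND-24L, 4.72 for ND-51L1, 4.12 for ND-51L2 and 3.99 for ND-B14.5AL in complex I, and 3.76 for UQCR-11L and 4.11 for UQCR-14L in complex III. In complex IV the means were 3.52 for COX5BL, 4.10 for COX6AL, 4.05 for COX6AL2, 3.78 for COX6CL and 4.32 for COX7AL2. A probe set under the expression limit can miss a change, so their differences are bounded only by what such dim signals can show. ND-20L, ND-24L, ND-B14.5AL and UQCR-14L are, by name, autosomal copies of X-linked genes, and differed by 0.02, 0.10, 0.13 and 0.02 after Sxl RNAi.

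The double knockdown left no respiratory chain gene past the threshold against GFP RNAi. By limma 0 of 55 were called, where 3.79% of all genes tested were (2.19% higher and 1.60% lower). At an unadjusted p under 0.05 by limma there were 6 of the 55. The share of all genes tested at that unadjusted threshold is not given here, so the 6 are not set apart from it. The 6 were ND-B18 (0.31 ± 0.10, limma adjusted p = 0.120), ND-B12 (0.24 ± 0.08), ND-PDSW (0.21 ± 0.09), ND-18 (0.19 ± 0.08), ND-MNLL (0.18 ± 0.08) and COX7AL (-0.35 ± 0.08, all SE). COX7AL had the lowest adjusted p of the 6, given above, and passed the threshold in 7 of 16 alternative fits. ND-B12 and ND-PDSW are autosomal accessory subunits of the membrane arm of complex I, and ND-B12, at 5.43 and 5.73 after Sxl and Msl2 RNAi and 5.25, 5.48 and 5.41 after GFP RNAi, was close to the expression limit. The remaining X-linked genes were at 0.19 (ND-20), 0.16 (ND-ASHI), 0.14 (ND-B14.5A), 0.06 (UQCR-14), 0.06 (ND-B16.6) and -0.02 (ND-75, interval -0.19 to 0.16). Of the 9 X-linked genes 7 were higher in both pairs, where 31.0% of all genes tested were, and the share of expressed X genes was not computed. Both double knockdown arrays were above all GFP arrays for 5 of the 9, where 11.7% of all genes tested and 24.2% of expressed X genes had this. None of the 9 was called, where 9.55% of expressed X genes were called higher. The median was 0.16 over the X-linked genes and -0.00 over the autosomal ones, beside 0.06 over expressed X genes. This comparison and that of Sxl RNAi with GFP RNAi share the GFP arrays.

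Set directly against the double knockdown, Sxl RNAi gave 1 call among the 55 genes, ND-75, where 0.776% of all genes tested (0.743% higher and 0.0334% lower) and 6.4% of expressed X genes were called. ND-75 was 0.44 ± 0.08 higher after Sxl RNAi (SE, 1.36-fold, interval 0.26 to 0.61, limma adjusted p = 0.0421), and this call was lost without any 1 of the 8 arrays (0.42 to 0.45, limma adjusted p = 0.0585 to 0.345). The next X-linked genes were ND-B14.5A (0.37 ± 0.10, limma adjusted p = 0.172), ND-ASHI (0.26 ± 0.08, limma adjusted p = 0.273), UQCR-14 (0.24 ± 0.08, limma adjusted p = 0.290) and ND-B18 (0.21 ± 0.10, limma adjusted p = 0.495, all SE). ND-18 (0.08), ND-MNLL (0.07), ND-20 (-0.01) and ND-B16.6 (-0.03) lay closer to 0. In 4 of the 9, ND-18, ND-75, ND-B18 and UQCR-14, every Sxl RNAi array was above both double knockdown arrays, where 8.88% of all genes tested and 24.8% of expressed X genes were. UQCR-14 and ND-75 had double knockdown values within the range of GFP RNAi, while ND-18, ND-20, ND-B18, ND-ASHI and ND-MNLL had double knockdown values above all GFP arrays, though no difference from GFP RNAi passed there. Among autosomal genes, UQCR-14L (0.22 ± 0.10, SE) had the largest difference, with a mean under the expression limit. No member was called lower.

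The difference between X-linked and autosomal respiratory chain genes, taken as the median of the 9 minus the median of the 46, was 0.27 for Sxl RNAi against GFP RNAi, 0.16 for Sxl and Msl2 RNAi against GFP RNAi and 0.21 for Sxl RNAi against Sxl and Msl2 RNAi. Computed in single pairs of arrays, it was 0.31, 0.31 and 0.27 in sets 1, 2 and 3 for Sxl RNAi against GFP RNAi (mean 0.30 ± 0.02, SD, n = 3 pairs). It was 0.12 and 0.22 in sets 1 and 3 for the double knockdown against GFP RNAi, and 0.21 and 0.15 for Sxl RNAi against the double knockdown. Without the library labelled Sxl and Msl2 RNAi replicate 2 the double knockdown gave 0.10, and without replicate 1 it gave 0.21. Over all expressed genes the same difference was 0.28 for Sxl RNAi, 0.07 for the double knockdown and 0.19 between both knockdowns. Whether the 9 genes differ from other X genes was not tested.

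**Figure D3:**
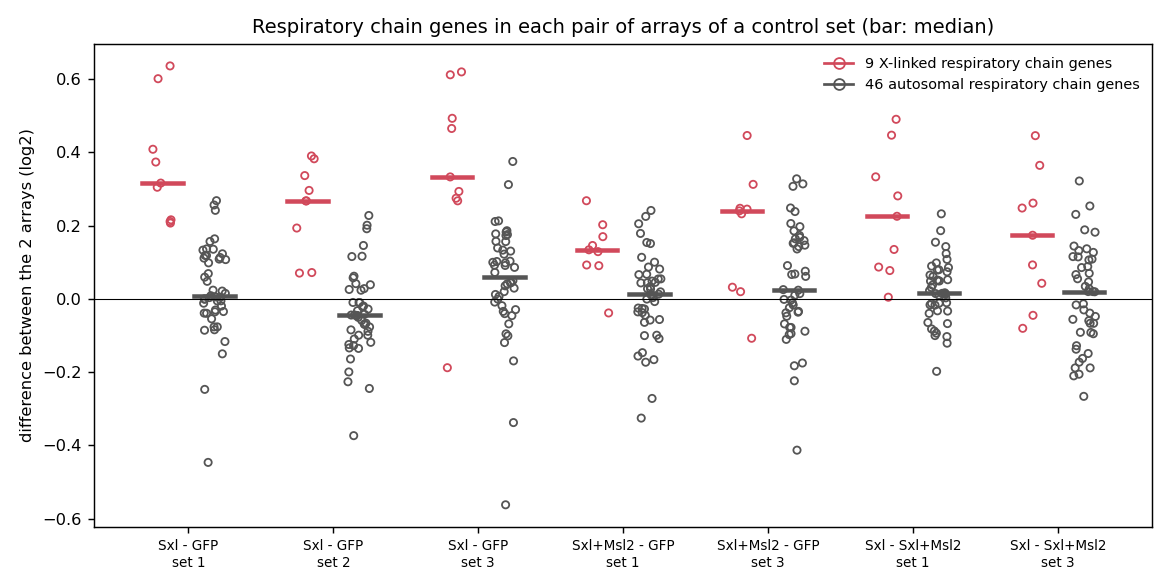
Difference in log2 value between the 2 arrays of each pair, for the 9 X-linked (red) and the 46 autosomal (grey) genes; each point is 1 gene and bars are medians. The red bar lies above the grey bar in all 7 pairs, by 0.27 to 0.31 in the 3 pairs of Sxl RNAi and GFP RNAi and by 0.12 and 0.22 in the 2 pairs of Sxl and Msl2 RNAi and GFP RNAi.

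Among the 1047 expressed X genes, the X-linked subunits were spread over most of the range. After Sxl RNAi, ND-B18 and ND-B14.5A had larger fold changes than 84.7% and 84.5% of expressed X genes, ND-75 and ND-ASHI than 76.1% and 75.4%, and UQCR-14, ND-18 and ND-MNLL than 59.3%, 56.4% and 54.4%. ND-20 exceeded 42.8% and ND-B16.6 18.1%. Between Sxl RNAi and the double knockdown ND-75 exceeded 90.2% of expressed X genes, and in the double knockdown against GFP RNAi it exceeded 31.9%. The nearest expressed X genes on both sides of each of the 9 genes, in the order of the Release 6 annotation, gave 18 neighbours. Of these 6 were called higher after Sxl RNAi (33.3%) and none lower, with a median of 0.19. Of expressed X genes 41.0% were called higher, with a median of 0.23, so the neighbours are not set apart from other X genes. ND-B16.6 sits next to CG3847, which was called higher (0.44 after Sxl RNAi, limma adjusted p = 0.00559), and ND-ASHI next to Mcm6, a subunit of the replicative helicase (0.77). ND-75 sits next to Trxr1, a thioredoxin reductase, which was at 0.20 after Sxl RNAi and -0.19 in the double knockdown, neither past the threshold. ND-20 lies between Slc25A46a and the translation factor gene eIF5, at 0.07 and -0.09.

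**Figure D4:**
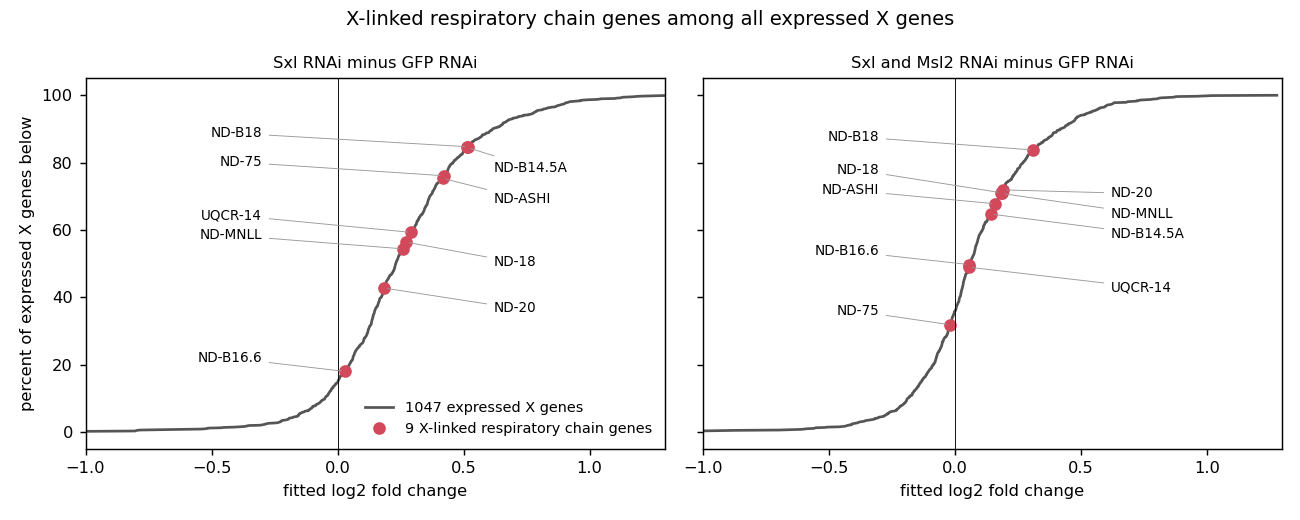
Cumulative distribution of the fitted log2 fold change over 1047 expressed X genes (grey line, percent of genes below each value) with the 9 X-linked respiratory chain genes marked in red, for Sxl RNAi minus GFP RNAi (left) and Sxl and Msl2 RNAi minus GFP RNAi (right). At the left the 9 genes run from ND-B16.6 at 18.1% to ND-B18 at 84.7%, and at the right from ND-75 at 31.9% to ND-B18 at 83.8%.

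Other genes of the pathway were read from 5 lists, whose median log2 fold changes after Sxl RNAi ran from -0.06 (tricarboxylic acid cycle) to 0.04 (mitochondrial biogenesis), beside -0.01 over all genes tested. The counts of calls below stand beside 5.98% of all genes tested called higher and 4.35% lower after Sxl RNAi, and with 1 or 2 calls a list none is set apart from that background. Of 6 measured subunits and carriers of complexes III and IV with other names, Cyt-c1L, an autosomal paralogue of cytochrome c1, was called higher after Sxl RNAi and none lower. It read 7.48, 7.82 and 7.85 after Sxl RNAi in sets 1, 2 and 3, 7.22 and 7.90 after Sxl and Msl2 RNAi, and 6.62, 7.34 and 7.29 after GFP RNAi. Both knockdowns were above GFP RNAi in sets 1 and 3, as was Sxl RNAi in set 2, by 0.63 ± 0.09 after Sxl RNAi (SE, limma adjusted p = 0.0023) and by 0.57 ± 0.10 after Sxl and Msl2 RNAi (SE, limma adjusted p = 0.0179), while Cyt-c1 itself differed by -0.08 and 0.02. Of 10 measured assembly factors only the X-linked copper carrier Cox17 was called (0.36 ± 0.08 after Sxl RNAi, SE, limma adjusted p = 0.0209, and 0.05 in the double knockdown).

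Of 12 measured genes for other ubiquinone-reducing enzymes and for ubiquinone synthesis, 2 were called higher after Sxl RNAi and none lower, both X-linked. Coq8, a kinase-like protein needed for ubiquinone synthesis, read 9.07, 8.64 and 9.18 after Sxl RNAi, 8.72 and 8.79 after Sxl and Msl2 RNAi, and 8.09, 8.02 and 8.18 after GFP RNAi. All knockdown arrays were above all GFP arrays, with rises of 0.87 ± 0.09 after Sxl RNAi (SE, limma adjusted p = 5.5e-04) and 0.56 ± 0.10 after Sxl and Msl2 RNAi (SE, limma adjusted p = 0.0187). Coq5, a methyltransferase of the same synthesis, rose 0.42 ± 0.07 after Sxl RNAi (SE, limma adjusted p = 0.00504), was at -0.11 in the double knockdown and was 0.53 ± 0.08 higher after Sxl RNAi than in the double knockdown (SE, limma adjusted p = 0.0201). The third X-linked gene of that list, Coq7, was at 0.01. Of 14 measured genes of mitochondrial biogenesis and mitochondrial DNA expression, only the X-linked transcription factor ewg was called, higher by 0.44 in both knockdowns (limma adjusted p = 0.00518 after Sxl RNAi and 0.0230 after Sxl and Msl2 RNAi). Of 16 measured genes of the tricarboxylic acid cycle, which supplies NADH and succinate to the chain, none was called higher and 2 autosomal ones were called lower after Sxl RNAi, CG1544 (-0.38 ± 0.08, limma adjusted p = 0.0174) and the succinyl-CoA ligase subunit ScsbetaA (-0.25 ± 0.07, limma adjusted p = 0.0458, both SE). In the double knockdown Idh3g, a subunit of isocitrate dehydrogenase, fell by 0.66 (limma adjusted p = 0.00652), and it was 0.53 higher after Sxl RNAi than in the double knockdown (limma adjusted p = 0.0322). The X-linked Idh3a was at 0.17 after Sxl RNAi, not past the threshold.

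Some members differed more between control sets than between treatments. In set 2, whose arrays also stood apart in plasmatocyte markers, COX4L read 5.96 after Sxl RNAi and 5.82 after GFP RNAi, against 7.81 and 7.99 after Sxl RNAi and 7.55 and 7.99 after GFP RNAi in sets 1 and 3. Set 2 was lower than the mean of sets 1 and 3 by more than 0.5 in both treatments for COX4L, COX7AL, ND-MLRQ and ND-15, an accessory subunit of complex I. These are 4 of the 55 genes (7.27%), and 0 were higher by that much. Of all 11983 genes tested, 474 were lower and 358 higher by that much in both treatments, or 6.94% in either direction. For ND-MLRQ the set difference was -0.68 after Sxl RNAi and -0.67 after GFP RNAi, and for ND-15 -0.69 and -0.67. These 4 genes were chosen for a shift of the same sign in both treatments, and the set differences were not tested.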

How the data were processed

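RNA of Kc cells was hybridised to Affymetrix Drosophila arrays. The deposited values are log2 signals that, per the labels, the authors made with RMA; the release and settings of that software and the genome build were not given in the sources used here. RMA corrects background, quantile-normalizes arrays and summarises probes, so a shift of many X genes can move other values. Of 18952 probe sets, those with 1 gene symbol were kept (13647), and 1 probe set per gene, with the highest mean, gave 11983 genes. Symbols and chromosome arms came from RefSeq (Release 6 plus ISO1 MT), which matched 11894 genes. limma 3.58.1 in R 4.3.3 fitted group plus control set over all 8 arrays, with Benjamini-Hochberg adjustment over all genes. The control sets come from the labels. Deviations of paired Sxl RNAi and GFP RNAi arrays correlated at 0.82 to 0.89. In sets 1 and 3, those of paired double knockdown and GFP RNAi arrays correlated at 0.51 and 0.48. Those of paired double knockdown and Sxl RNAi arrays correlated at 0.38 and 0.51. With 2 double knockdown arrays, their deviations from the group mean mirror each other, so the 2 arrays are not separate checks of the pairing. The script was tested on simulated data. Named genes were all members called, all X-linked ones, the 2 brightest per complex, all paralogue-named ones and the 3 largest differences per comparison; COX7A, ND-15, ND-19, ND-PDSW, ND-B8, UQCR-11, SdhD and neighbours, where named, were added after their values were seen. Members and lists were chosen with earlier results of these data known, and 1 symbol, ind, was dropped from the assembly factor list because it names a homeobox gene. The alternatives were no block, other probe summaries, filters, scalings, fits and leaving out arrays. The number of arrays limits the precision.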

Additional observations from a re-analysis of the deposited data

How the results depend on the processing

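Counts of genes called depended on the fit more than fold changes did. In the comparisons Sxl RNAi against GFP RNAi, Sxl and Msl2 RNAi against GFP RNAi and Sxl RNAi against Sxl and Msl2 RNAi, 1237, 454 and 93 genes were called. Without the replicate block of control sets, a pairing that the labels give, 30, 1 and 1 were called, with 0 respiratory chain genes in each and an X minus autosome difference of 0.13 in the third comparison. Leaving out 1 array gave 514 to 1033, 20 to 615 and 6 to 88 genes, 5 to 6, 0 to 1 and 0 to 0 respiratory chain genes, and X minus autosome differences of 0.25 to 0.32, 0.10 to 0.21 and 0.15 to 0.24. Without control set 2, 5, 1 and 0 respiratory chain genes were called. With a prior trend on mean level 1568, 833 and 210 genes and 10, 1 and 3 respiratory chain genes were called. With only the groups compared the third comparison gave 232 genes and 2 respiratory chain genes. Centring on autosomal genes gave 156 genes there; it turned the split of higher and lower calls after Sxl RNAi to 912 and 330, from 716 and 521 as deposited. In the double knockdown against GFP RNAi 1 gene, COX7AL, was called with averaged probe sets, with genes above the median level only, with centring and with a further quantile normalization.

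Apart from COX7AL, which was at -0.35 in the double knockdown against GFP RNAi, signs turned where the difference was under 0.06 in size. Without 1 array, ND-B16.6 ranged from -0.055 to 0.13 after Sxl RNAi and from -0.049 to 0.19 after Sxl and Msl2 RNAi, both against GFP RNAi, and from -0.097 to 0.063 between the knockdowns. ND-20 ranged there from -0.086 to 0.071. In the double knockdown against GFP RNAi, COX7AL was at 0.063 and ND-75 at 0.058 without the block, and ND-75 at 0.012 with a further quantile normalization. Between the knockdowns, ND-B16.6 was at 0.021 without the block and 0.025 with centring, and ND-20 at 0.045 with centring, 0.0024 with quantile normalization and 0.021 with only the groups compared or without control set 2. Set 2 holds no double knockdown array, and for COX7AL its difference from sets 1 and 3 was -1.30 after GFP RNAi. Within sets 1 and 3 the double knockdown array lay below its GFP array for COX7AL. The cause of the sign changes was not tested.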
